A study of Mus musculus with 27 samples.

Results

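The ratio of chromatin-associated to nucleoplasmic RNA was compared, gene by gene, between a mouse neural progenitor line (mNPC) and mouse embryonic stem cells (mESC). For each gene the log2 ratio of chromatin to nucleoplasm in mESC was subtracted from the same log2 ratio in mNPC, so a positive value means relatively more RNA on chromatin in the progenitors. Genes are reported where the mean level reached 1 CPM (counts scaled to the effective library size) in at least 1 of these 2 fractions in each cell type, which gave 13005 of the 37332 genes in the count table. The 37 genes of the mitochondrial genome were set apart. All 13005 genes passed the low-count filter of the fit, in which 18252 genes were tested. At the edge of the level rule, Slc22a15, 1700029I15Rik and Stap2 were just inside, and the lower of their 2 cell types was at 1.00 CPM. Gxylt2, at 0.999 CPM, and Ttc36, also at 0.999 CPM, were just outside.

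The study followed RNA through the compartments of cells along neuronal differentiation. The stem cells were of the E14 line, kept on gelatin with LIF, a cytokine that maintains the stem cell state. The progenitors were 1 line grown in DMEM/F12 with B27 lacking vitamin A, and received EGF and FGF daily. Each cell type is thus represented by 1 line, and no other genotype or treatment is named for either. RNA was taken separately from the cytoplasm, the soluble nucleoplasm and chromatin. The labels give 3 biological replicates for each fraction of each cell type, so 12 libraries entered the comparison. Primary cortical neurons (mCtx), kept 5 days in culture on poly-L-lysine, are given beside it only for reference. Their libraries and the cytoplasm libraries did enter the fit, and so its filter, scaling and estimate of spread. RNA over 200 nt was depleted of ribosomal RNA and sequenced as stranded 100 bp read pairs.

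RNA is made on chromatin, and most introns are removed while the transcript is still attached to its gene or soon after. A transcript that is finished, cleaved and released passes through the soluble nucleoplasm on its way to the cytoplasm, whereas unspliced, slowly processed or structurally bound RNAs stay with chromatin. Some transcripts keep particular introns after polyadenylation, called detained introns, and are held in the nucleus, which is well described for genes of splicing factors. The endoplasmic reticulum and mitochondria can remain with nuclei during fractionation, so messages being translated on those membranes are a known guest of nuclear fractions.

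Total counts of the 12 libraries ran from 12194455 to 19871198. Mitochondrial genes took 27.9 to 29.8% of counts in mESC nucleoplasm and 7.81 to 15.7% in mNPC nucleoplasm, against 2.06 to 5.90% in mESC chromatin and 0.153 to 0.258% in mNPC chromatin, and mESC chromatin replicate 1 stood apart from the others at 5.90%. The cell types carried their markers. The 33 pluripotency genes summed to 3657 to 3826 CPM in mESC chromatin and 7374 to 8395 CPM in mESC nucleoplasm, against 376 to 423 and 407 to 483 CPM in mNPC, where Pou5f1, Zfp42 and Utf1 had 0 counts in both fractions. The 34 neural progenitor and radial glia genes summed to 16824 to 17076 CPM in mNPC chromatin and 27150 to 31893 CPM in mNPC nucleoplasm, against 1093 to 1160 and 639 to 654 CPM in mESC. Markers of differentiated neurons (16 genes) summed to 1927 to 2273 CPM in mNPC chromatin and 660 to 812 CPM in mNPC nucleoplasm, against 216 to 272 and 182 to 200 CPM in mESC, with Neurod2 and Neurod6 at 0 counts in both mNPC fractions. Oligodendrocyte markers (9 genes) reached 365 to 453 CPM in mNPC nucleoplasm with Mobp and Mog at 0 counts, against 76.4 to 130 CPM in mESC nucleoplasm. Astrocyte markers (7 genes) reached 684 to 1130 CPM in mNPC nucleoplasm against 486 to 597 CPM in mESC nucleoplasm. In chromatin they summed to 204 to 279 CPM in mNPC against 33.5 to 63.9 CPM in mESC. All 7 reached 1 CPM in each mNPC fraction, against 2 in each mESC fraction. Markers of primitive endoderm and trophoblast (12 genes) reached 708 to 835 CPM in mNPC nucleoplasm against 92.1 to 112 CPM in mESC nucleoplasm. Of these, Afp, Cdx2, Gata6 and Sox17 had 0 counts in mNPC nucleoplasm. Only 2 of these 12 reached 1 CPM in each mNPC fraction, against 7 in mESC chromatin and 9 in mESC nucleoplasm. In mNPC chromatin 9 had 0 counts, Gata4 and Sox7 among them. Microglia and fibroblast markers stayed at or below 50.6 CPM in every library. The part of other cell types in the results was not tested, and in these bulk samples fewer cells of a type and less RNA per cell cannot be told apart.

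The balance between chromatin and nucleoplasm differed for 5123 of the 13005 genes, or 39.4%, at an adjusted p below 0.05 in edgeR's quasi-likelihood test (30.1% of all 18252 genes tested, with 13.3% higher and 16.8% lower). The ratio was higher in mNPC for 2329 genes (17.9%) and lower for 2794 (21.5%). Of these, 909 of the higher and 1561 of the lower genes differed by more than 2-fold. The median difference over all reported genes was -0.04 on the log2 scale, with quartiles of -0.62 and 0.45. All values are shares of a library after scaling and not amounts per cell. The split between the directions depended on the scaling. The share of higher genes among those called was 45.5% with trimmed-mean scaling, 39.2% with median-ratio size factors and 54.0% with total counts, where 2757 were higher and 2345 lower, and it was 62.3% with the deposited TPM values, where 1924 were higher and 1163 lower. The median moved to 0.16 with TPM. After rescaling of the TPM values by the median ratio between libraries the share was 39.0%, with 1968 higher and 3084 lower, and the median was -0.09. How the TPM values were made is not given in the sources used here. Without mNPC nucleoplasm replicate 3 the share was 38.0%.

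Most genes kept their side. Across the 13005 genes the log2 ratio in mESC and the log2 ratio in mNPC had a Pearson r of 0.84, a description across genes, which are not independent replicates and share the fractionation protocol. Within mESC 74.8% of genes were called, 4924 higher in chromatin (37.9%) and 4810 in nucleoplasm (37%). Within mNPC 79.3% were called, 5138 higher in chromatin (39.5%) and 5180 in nucleoplasm (39.8%). Only a minority crossed over with both sides called. In 222 genes the RNA was higher in nucleoplasm in mESC and in chromatin in mNPC, and in 302 genes the order was the opposite. A further 851 of the genes with a higher ratio were on the chromatin side in both cell types, and 1124 of those with a lower ratio were on the nucleoplasm side in both.

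**Figure D1:**
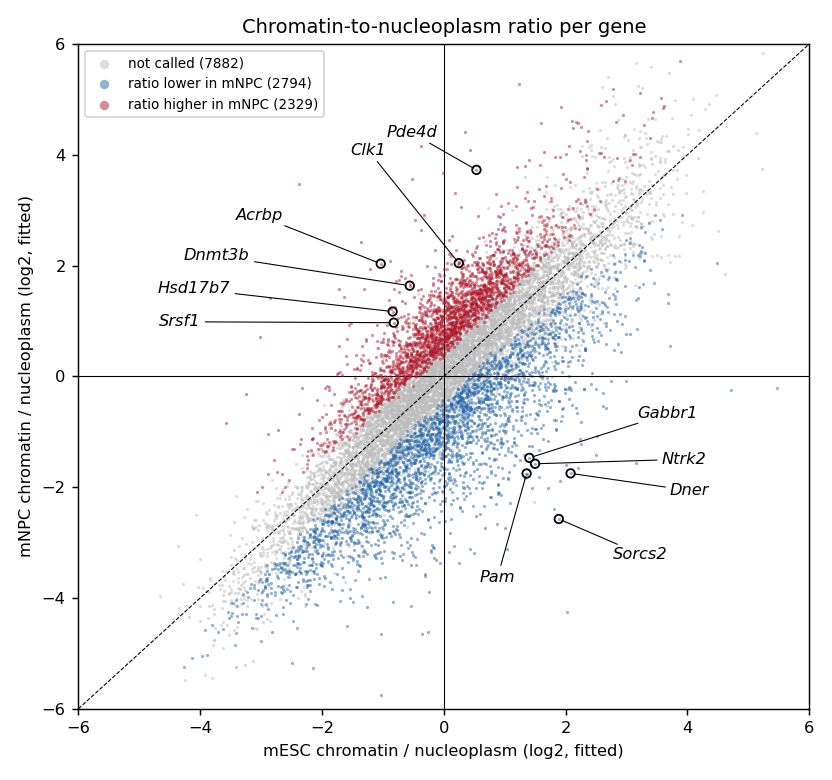
Log2 ratio of chromatin to nucleoplasm in mESC (x axis) against the same in mNPC (y axis), fitted by edgeR, 1 point per gene; 9 of 13005 genes lie outside the axes. Red points were called higher in mNPC (2329), blue lower (2794), grey were not called (7882), and the dashed line marks equal ratios; most points follow the line, Gabbr1, Ntrk2, Dner, Pam and Sorcs2 sit at the lower right and Acrbp, Hsd17b7, Dnmt3b and Srsf1 in the upper left.

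Both classes were marked more by the nucleoplasm than by chromatin. The ratio difference is by arithmetic the chromatin change minus the nucleoplasm change, so at least 1 of them must move with it. Among the 2329 higher genes the level in nucleoplasm fell from mESC to mNPC in 1545 and rose in 379, while the level in chromatin rose in 1055 and fell in 748. The medians were a log2 change of -0.74 in nucleoplasm and 0.20 in chromatin. Among the 2794 lower genes the nucleoplasm rose in 1940 and fell in 467, and chromatin rose in 1135 and fell in 1073. Here the medians were 1.11 in nucleoplasm and 0.03 in chromatin. Over all reported genes 78.5% changed in nucleoplasm, where 40.6% rose and 37.9% fell, and 75.4% changed in chromatin, where 38.9% rose and 36.5% fell.

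**Figure D2:**
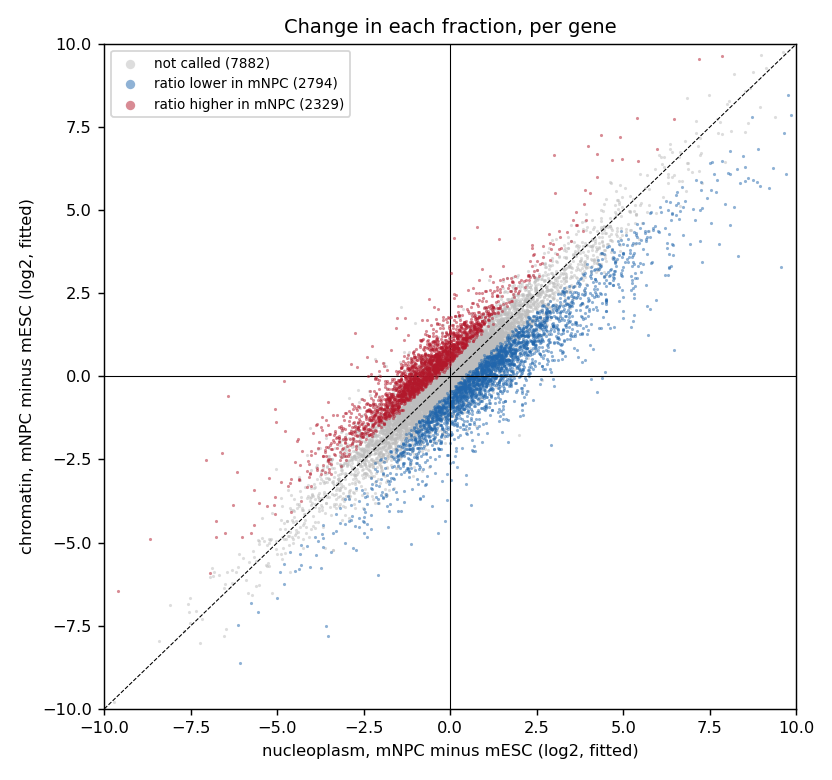
Fitted log2 change from mESC to mNPC in nucleoplasm (x axis) and in chromatin (y axis), 1 point per gene, coloured by the call on the ratio; 13 genes lie outside the axes and the dashed line marks equal change. Blue points (ratio lower in mNPC, median nucleoplasm change 1.11 and median chromatin change 0.03) lie mostly to the right of 0, and red points (medians -0.74 and 0.20) mostly to the left.

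Among genes at 10 CPM or more in both cell types, the largest decline in the ratio was that of Sorcs2, a sorting receptor of the VPS10 family that acts with neurotrophin receptors (mm10 chr5:36017180-36398139, 31 exon blocks). Its level was 17.7, 23.7 and 19.4 CPM in mESC chromatin and 8.72, 5.21 and 2.15 CPM in mESC nucleoplasm, and 57.0, 43.3 and 44.9 CPM in mNPC chromatin against 287, 302 and 276 CPM in mNPC nucleoplasm. Chromatin was above nucleoplasm in every mESC library and below it in every mNPC library, with no overlap. The log2 ratio went from 1.89 to -2.57, a difference of -4.46 (SE 0.40, adjusted p = 8.37e-09). In mCtx the log2 ratio was 1.29, on the chromatin side as in mESC. With TPM the difference was -2.25, and -2.97 rescaled.

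Dner, a transmembrane Notch-binding protein of neurons and glia (chr1:84369841-84696221), was at 11.9, 20.5 and 12.5 CPM in mESC chromatin and 4.08, 3.45 and 3.00 CPM in mESC nucleoplasm. In mNPC its chromatin libraries held 189, 158 and 144 CPM and its nucleoplasm libraries 569, 590 and 492 CPM. Both fractions were higher in mNPC, nucleoplasm by far the more, and the order of the fractions turned over without overlap. The difference in log2 ratio was -3.83 (SE 0.25, adjusted p = 5.85e-11).

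Ntrk2, the receptor for BDNF (chr13:58806596-59133970), was at 10.9, 14.3 and 13.1 CPM in mESC chromatin, 4.39, 4.27 and 4.92 CPM in mESC nucleoplasm, 1070, 884 and 999 CPM in mNPC chromatin and 3363, 2918 and 2531 CPM in mNPC nucleoplasm. A gene near its floor in stem cells thus became one of the abundant messages of the progenitors. Its difference was -3.08 (SE 0.23, adjusted p = 8.07e-10), and its log2 ratio in mNPC was -1.58.

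Gabbr1 encodes a subunit of the metabotropic GABA receptor (chr17:37045966-37075067, 22 exon blocks). Its RNA was at 55.4, 68.1 and 91.6 CPM in mESC chromatin and 32.6, 22.9 and 25.6 CPM in mESC nucleoplasm, and at 140, 116 and 118 CPM in mNPC chromatin and 403, 340 and 293 CPM in mNPC nucleoplasm. The 3 nucleoplasm libraries of mNPC lay above all others and those of mESC below all others. Chromatin rose by a log2 change of 0.80 and nucleoplasm by 3.67, and the ratio differed by -2.88 (SE 0.22, adjusted p = 9.61e-10). In mCtx the log2 ratio of -1.60 was on the nucleoplasm side, as in mNPC.

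Pam, an enzyme that amidates secreted neuropeptides (chr1:97795114-98095646), was the last of the 5 genes with the widest crossing in this direction, ranked by the smaller of their 2 distances from equal fractions. It was at 35.3, 60.3 and 59.7 CPM in mESC chromatin, 17.4, 23.4 and 19.8 CPM in mESC nucleoplasm, 99.6, 98.6 and 99.5 CPM in mNPC chromatin and 361, 347 and 296 CPM in mNPC nucleoplasm. The difference was -3.11 (SE 0.23, adjusted p = 3.48e-10), again with fractions that did not overlap in either cell type.

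**Figure D3:**
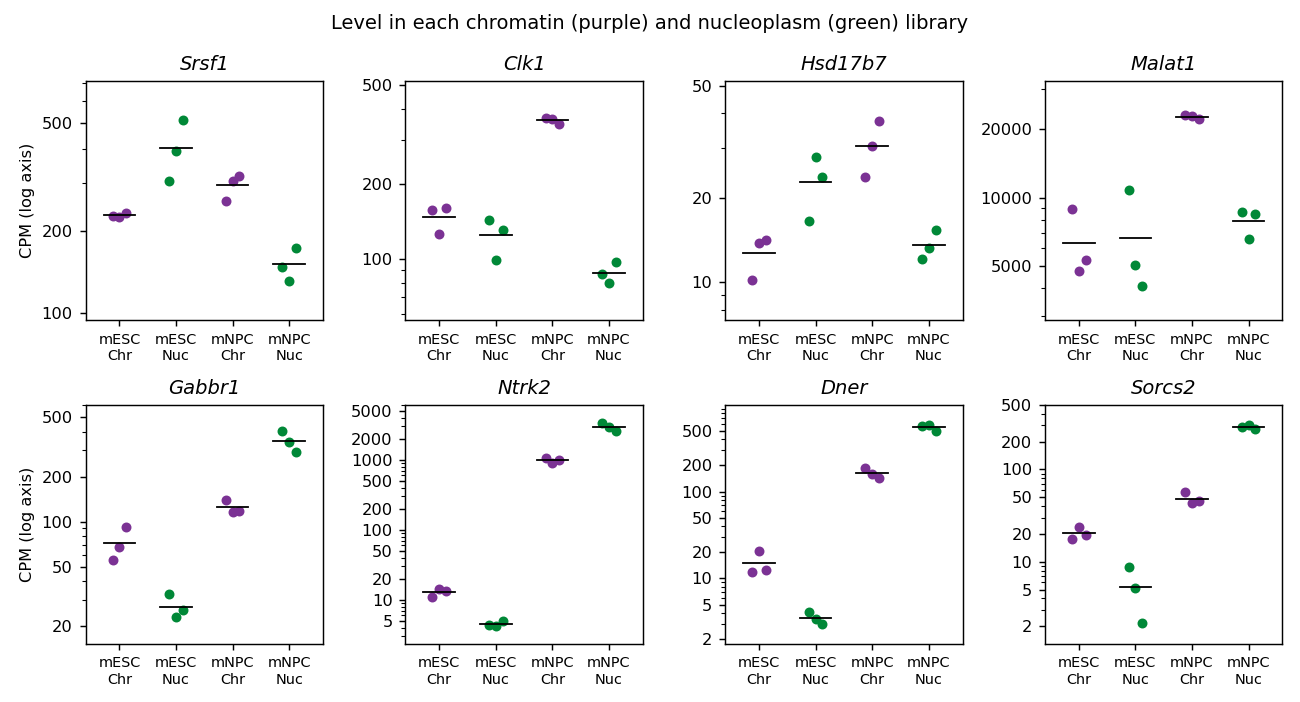
Level (CPM, log axis) of 8 genes in each chromatin (Chr, purple) and nucleoplasm (Nuc, green) library of mESC and mNPC; points are libraries and bars the mean of 3. In the upper row mNPC chromatin lies above mNPC nucleoplasm for Srsf1, Clk1, Hsd17b7 and Malat1, and in the lower row mNPC nucleoplasm lies above mNPC chromatin for Gabbr1, Ntrk2, Dner and Sorcs2, whose mESC libraries have the opposite order.

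None of the other genes among the 8 largest declines was called on the nucleoplasm side in mESC. Nup210, a membrane protein of the nuclear pore (chr6:91013068-91116829), was at 94.0, 134 and 125 CPM in mESC chromatin and 157, 164 and 117 CPM in mESC nucleoplasm, where the fractions overlapped, and at 50.8, 50 and 57.0 CPM against 524, 716 and 624 CPM in mNPC. Chromatin fell and nucleoplasm rose, and the difference was -3.25 (SE 0.21, adjusted p = 3.79e-11). Pcx, the mitochondrial enzyme pyruvate carboxylase, differed by -3.61, Cdh4, a cadherin, by -3.59, Megf6, a protein with EGF repeats, by -3.24, and Serpine2, a secreted protease inhibitor, by -3.23. Pcx held 1106 to 1392 CPM in mNPC nucleoplasm and 113 to 134 CPM in mNPC chromatin, against 28.2 to 48.4 CPM over both fractions of mESC. In mESC neither side was called for Nup210, Pcx, Megf6 or Serpine2, while Cdh4 was on the chromatin side with a log2 ratio of 2.52, against -1.07 in mNPC. Under TPM the difference was -2.08 for Nup210 (-2.56 rescaled), -1.84 for Cdh4 (-2.49) and -1.90 for Megf6 (-2.57). Pcdhgc4, a clustered protocadherin, went from a log2 ratio of 1.01 to -2.74, a difference of -3.75 by counts, but 0.12 by TPM and 0.14 rescaled, neither of them called.

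The lists of genes whose products enter the secretory pathway leaned the same way. The counts of these and all later lists stand beside 17.9% higher and 21.5% lower over all reported genes. Of 32 extracellular matrix and basement membrane genes, 26 had a lower ratio in mNPC and 1 a higher one, with a median of -1.49 against -0.04 over all reported genes. Col5a1, a fibrillar collagen, differed by -2.53 (SE 0.27, adjusted p = 1.39e-07) and Hspg2, the basement membrane proteoglycan perlecan, by -2.30 (SE 0.23, adjusted p = 5.83e-08). P4ha2, a collagen prolyl hydroxylase, was the exception at 1.21 (adjusted p = 0.00172), and Plod2, a lysyl hydroxylase, was at 0.21 (adjusted p = 0.486). Hspg2 fell in both fractions, to 16.0 to 21.7 CPM in chromatin and 228 to 308 CPM in nucleoplasm, from 151 to 220 and 452 to 679 CPM in mESC. With TPM the matrix list counted 15 lower and 5 higher genes, and 22 and 4 after rescaling. Hspg2 was not called with TPM (-0.44) but was after rescaling (-0.98), Col5a1 was at -0.50 and -1.15, and P4ha2 (0.63 in both) was called in neither.

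Membrane receptors and adhesion genes (57 reported) had 33 lower and 1 higher, with a median of -0.89. Gpc1, a cell surface heparan sulfate proteoglycan, differed by -2.45 (SE 0.22, adjusted p = 8.50e-09). The 1 higher gene, Lrp2, an endocytic receptor, was at 0.75 (adjusted p = 0.0427). It lost its call with DESeq2 (0.68) and with the 12 compared libraries alone (0.75). The call was also lost without mESC chromatin replicate 1 (0.47), mESC nucleoplasm replicates 2 or 3 (0.58 and 0.77), mNPC chromatin replicates 2 or 3 (0.68 and 0.73) or mNPC nucleoplasm replicates 1 or 3 (0.63 and 0.69). Tfrc, the transferrin receptor, was at 0.91 (adjusted p = 0.0704). TPM gave 17 lower and 5 higher genes in this list, and 31 and 5 after rescaling.

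Synaptic receptors and channels (36 reported) had 19 lower and 1 higher, and a median of -1.03. These genes lay mainly on the chromatin side in stem cells, with a median log2 ratio of 2.17 in mESC and 1.35 in mNPC, and the number called higher in chromatin went from 32 to 24. Besides Gabbr1, Nrxn2, a presynaptic adhesion molecule, differed by -3.17 (SE 0.27, adjusted p = 3.92e-09), with 213 to 246 CPM in mNPC nucleoplasm and 39.7 to 53.1 CPM in mNPC chromatin. The 1 higher gene of the list is not named here. Ryr3, an intracellular calcium channel outside the list, was at 2.14 (SE 0.50, adjusted p = 0.0016). It was at 1.28 without mESC nucleoplasm replicate 1 and at 0.15, not called, with TPM (0.52, called, after rescaling). Within the list, Homer1 (0.50, adjusted p = 0.0841), a postsynaptic scaffold, and Kcnq3 (0.66, adjusted p = 0.283), a potassium channel, did not pass.

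Chaperones and translocation factors of the endoplasmic reticulum (45 genes) had 19 lower and 3 higher, with a median of -0.42. None was called on the chromatin side in either cell type, and 44 were called on the nucleoplasm side in each. Rpn2, a subunit of the oligosaccharyltransferase, differed by -1.36 (SE 0.18, adjusted p = 1.93e-06), and Spcs3, a subunit of the signal peptidase, by 1.02 (SE 0.15, adjusted p = 1.06e-05). Hspa5, the chaperone BiP, was at 0.04 (adjusted p = 0.989). With TPM 1 gene of the list was called lower and Rpn2 was at -0.82, and after rescaling 15 were lower and Rpn2 was at -1.29. The sign of Hspa5 turned with median-ratio size factors.

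Genes of translation and energy metabolism also had lower ratios, by smaller amounts. Of 81 cytosolic ribosomal protein genes, 53 were lower and none higher in edgeR, also at an unadjusted p below 0.05 and in DESeq2, with a median of -0.67. All 81 were on the nucleoplasm side in both cell types, and the median log2 ratio went from -2.51 to -3.16. In mNPC the levels were lower in both fractions, with 77 of the 81 called lower in chromatin and 70 in nucleoplasm. Rpl29 was at 7.58, 7.22 and 6.21 CPM in mESC chromatin, 25.7, 27.1 and 34.6 CPM in mESC nucleoplasm, 11.1, 11.8 and 10.3 CPM in mNPC chromatin and 147, 160 and 138 CPM in mNPC nucleoplasm, a difference of -1.69 (SE 0.20, adjusted p = 6.90e-07). It was the 1 gene of the list that rose in chromatin, and by TPM its ratio differed by -0.96, and by -1.47 rescaled. Ribosomal protein genes have many near-identical pseudogenes, so single values are uncertain.

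Nuclear-encoded oxidative phosphorylation genes (80 reported) had 47 lower and none higher, with a median of -0.67. At an unadjusted p below 0.05 in edgeR 1 was higher, and in DESeq2 none. Unlike the ribosomal protein genes they were mostly more abundant in mNPC, with 72 rising in nucleoplasm and 50 in chromatin. Sdha, the catalytic subunit of complex II, was at 85.2, 77.6 and 86.1 CPM in mESC chromatin, 173, 207 and 209 CPM in mESC nucleoplasm, 140, 146 and 145 CPM in mNPC chromatin and 1107, 1184 and 1148 CPM in mNPC nucleoplasm. The spread between its replicates was small beside the difference of -1.75 (SE 0.14, adjusted p = 1.54e-09). Glycolysis enzymes (17 genes) had 9 lower and 1 higher and a median of -0.72, with Hk1, a hexokinase, at -1.99 (SE 0.17, adjusted p = 5.91e-09). With TPM 14 of the ribosomal protein genes, 7 of the oxidative phosphorylation genes and 2 of the glycolysis enzymes were called lower. After rescaling these were 57, 50 and 10, so the counts of these lists turned on the scaling of the TPM values. Called higher were 2 ribosomal protein genes with TPM and 2 after rescaling, and 1 and 0 oxidative phosphorylation genes. Mitochondrial ribosomal proteins (74 genes) split evenly, with 13 higher and 10 lower and a median of -0.01. Their shares were 17.6 and 13.5%, against 17.9 and 21.5% over all reported genes.

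The 20 mitochondrially encoded genes that were called, of 29 tested apart, all had a lower ratio in mNPC. Their transcripts are made inside mitochondria and are therefore a marker of mitochondria in a fraction. The median log2 ratio of the 29 genes was -3.67 in mESC and -5.54 in mNPC, and the median difference was -1.80. The ratio of mitochondrial RNA thus shifted in the same direction as that of the lists just described, and its part in those results was not tested. The changes within a fraction differed between these genes. The ribosomal RNAs fell in chromatin and in nucleoplasm, mt-Rnr2 by log2 changes of -5.75 and -2.26 and mt-Rnr1 by -6.98 and -2.70. In nucleoplasm mt-Co1 (1.80) and mt-Cytb (2.09) rose and mt-Nd2 (0.11) was not called. The mitochondrial share of nucleoplasm counts was lower in mNPC than in mESC. Keeping the mitochondrial rows in the library sizes left 5123 genes called, of which 4950 were also called, with the same sign, without them.

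Genes with detained introns made up the list with the highest median in the opposite direction. Of 40 genes, 37 (92.5%) had a higher ratio in mNPC and none a lower one, with a median of 1.23. Over all reported genes 17.9% were higher and 21.5% lower. The list came from general knowledge and was chosen with earlier results of these data known. None was lower at an unadjusted p below 0.05 in edgeR either, and none in DESeq2. The median log2 ratio was 0.16 in mESC, 1.15 in mNPC and 0.10 in mCtx. In mESC 17 of the genes were on the chromatin side and 15 on the nucleoplasm side, whereas in mNPC 39 were on the chromatin side and none on the nucleoplasm side. Nucleoplasm fell in 34 and rose in 3, and chromatin rose in 21 and fell in 8. When a log2 difference of at least 1 was required, 11 of the 37 remained.

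Srsf1, an SR protein that promotes exon recognition (chr11:88047373-88053755), was at 228, 225 and 232 CPM in mESC chromatin and 306, 394 and 513 CPM in mESC nucleoplasm, and at 258, 306 and 320 CPM in mNPC chromatin and 147, 131 and 173 CPM in mNPC nucleoplasm. Nucleoplasm was the higher fraction in stem cells and the lower one in progenitors, without overlap in either. The chromatin level did not pass the test (log2 change 0.37, adjusted p = 0.0596) and nucleoplasm fell by 1.42. The difference in ratio was 1.79 (SE 0.25, adjusted p = 5.10e-06). In mCtx the log2 ratio of -0.77 was on the nucleoplasm side.

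Clk1, a kinase of SR proteins whose own transcript is a standard example of a detained intron (chr1:58410189-58424066), was at 157, 125 and 160 CPM in mESC chromatin, 144, 98.9 and 131 CPM in mESC nucleoplasm, 371, 366 and 350 CPM in mNPC chromatin and 87.1, 79.4 and 97.0 CPM in mNPC nucleoplasm. The mESC fractions overlapped and the mNPC fractions were far apart. Its difference was 1.80 (SE 0.20, adjusted p = 2.28e-07), and that of its relative Clk4 was 1.21 (SE 0.18, adjusted p = 1.46e-05).

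Ccnl2, a cyclin that localises with splicing factors, had a difference of 1.92 (SE 0.19, adjusted p = 3.55e-08), with 279 to 331 CPM in mNPC chromatin and 70.9 to 99.0 CPM in mNPC nucleoplasm, while its mESC libraries ran from 98.5 to 137 CPM over both fractions. Ogt, the enzyme that attaches GlcNAc to nuclear and cytosolic proteins, differed by 1.17 (SE 0.17, adjusted p = 1.14e-05). Pabpn1, the nuclear poly(A)-binding protein, had the list's largest difference, 2.51 (SE 0.21, adjusted p = 2.94e-09), but 99.4% of its span is shared on the same strand with the readthrough gene Gm20521 (1.69), so their reads cannot be told apart. Clk3, another kinase of the family, was at 0.40 and did not pass (adjusted p = 0.0592).

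Other genes of RNA handling had more higher than lower ratios, with smaller medians. Among 24 further SR proteins and hnRNPs 11 were higher and 3 lower, with a median of 0.50. Srsf10 was at 1.34 (SE 0.20, adjusted p = 9.64e-06), and Hnrnpc, which packages nascent RNA, at -0.92 (SE 0.16, adjusted p = 0.000117), -0.65 (not called) by TPM and -1.09 (called) after rescaling. Of 62 core spliceosome proteins 17 were higher (27.4%) and 3 lower (4.84%) with a median of 0.15, and 5 were lower without mESC nucleoplasm replicate 3. Prpf4b, a kinase of the spliceosome, was at 134, 132 and 147 CPM in mESC chromatin and 125, 134 and 155 CPM in mESC nucleoplasm, and at 285, 321 and 303 CPM against 79.8, 68.4 and 89.6 CPM in mNPC. Equal fractions in stem cells had thus separated in progenitors, with a difference of 1.94 (SE 0.22, adjusted p = 3.79e-07).

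Nuclear pore and transport genes (50 reported) had 18 higher and 4 lower and a median of 0.32, although Nup210 was among the lower. Tnpo1, an import receptor for RNA-binding proteins, was at 214, 214 and 210 CPM in mESC chromatin, 335, 374 and 439 CPM in mESC nucleoplasm, 669, 663 and 669 CPM in mNPC chromatin and 460, 404 and 414 CPM in mNPC nucleoplasm. Chromatin went from the lower to the higher fraction, and the difference was 1.49 (SE 0.16, adjusted p = 1.65e-07). Nxf1, the main mRNA export receptor, whose transcript is itself known for a retained intron, was at 1.56 by counts (SE 0.21, adjusted p = 3.27e-06) and not called by TPM (0.39, and -0.054 rescaled). Zinc finger genes named Zfp (344 reported), many of them transcriptional repressors, had 89 higher (25.9%) and 35 lower (10.2%) and a median of 0.25. With TPM the counts were 50 and 20, and after rescaling 64 and 51.

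Neural RNA-binding proteins (27 reported) had 12 higher and 2 lower and a median of 0.49, with TPM 7 and 1, and after rescaling 6 and 4. Without mESC chromatin replicate 1, 4 were lower. Ptbp1, a splicing repressor of non-neural cells, was lower in mNPC in both fractions. It was at 83.2, 85.2 and 91.0 CPM in mESC chromatin, 203, 323 and 318 CPM in mESC nucleoplasm, 43.5, 46.6 and 58.0 CPM in mNPC chromatin and 75.8, 90.6 and 95.6 CPM in mNPC nucleoplasm. It stayed on the nucleoplasm side and its ratio differed by 0.88 (SE 0.23, adjusted p = 0.0045). Overlapping genes on the other strand cover 46.7% of its span. Ptbp2, its neural relative, rose in both fractions and was on the chromatin side in both cell types, with a difference of 0.99 (SE 0.20, adjusted p = 0.000502). Khdrbs3, a splicing regulator of neurexins, was at -1.18 (SE 0.14, adjusted p = 5.79e-07) and -0.56 (not called) by TPM and -1.13 (called) after rescaling. Rbfox2, a splicing factor that binds introns, was at -0.39 and not called (adjusted p = 0.189).

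Outside these lists the largest rises in the ratio were in genes of diverse function. Pde4d, a cAMP phosphodiesterase with a very long gene (chr13:108449948-109953461), was at 305, 325 and 282 CPM in mESC chromatin and 211, 202 and 216 CPM in mESC nucleoplasm, and at 617, 546 and 559 CPM in mNPC chromatin against 47.9, 43.5 and 38.7 CPM in mNPC nucleoplasm. Chromatin rose and nucleoplasm fell, so that fractions near one another in stem cells were far apart in progenitors. The difference of 3.19 (SE 0.16, adjusted p = 4.29e-13), or 9.14-fold, was present in gene-span counts and not called by TPM (0.28, and 0.20 rescaled). Foxp1, a forkhead transcription factor with a span 44.4% shared with other annotated genes on its strand, differed by 2.22 (SE 0.30, adjusted p = 3.47e-06).

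Acrbp, best known from the sperm acrosome (chr6:125049689-125063267), was at 6.46, 6.51 and 6.32 CPM in mESC chromatin, 12.7, 15.7 and 11.1 CPM in mESC nucleoplasm, 23.4, 17.6 and 24.5 CPM in mNPC chromatin and 5.99, 4.74 and 5.28 CPM in mNPC nucleoplasm. The fractions turned over with no overlap at a low level, and the difference was 3.07 (SE 0.31, adjusted p = 5.39e-08). Hsd17b7, an enzyme of cholesterol and steroid synthesis (chr1:169949535-169969241), was at 10.2, 13.8 and 14.1 CPM in mESC chromatin, 16.6, 28.0 and 23.8 CPM in mESC nucleoplasm, 23.7, 30.6 and 37.6 CPM in mNPC chromatin and 12.2, 13.2 and 15.4 CPM in mNPC nucleoplasm. It too crossed over without overlap, by 2.01 (SE 0.26, adjusted p = 1.58e-06), and by 1.12 with TPM (1.10 rescaled). Atp10d, a lipid flippase annotated as a polymorphic pseudogene, was at 2.52 by counts and 1.39 by TPM (1.60 rescaled), and Ehbp1l1, a protein of membrane traffic, at 2.41 and 0.71 (0.87 rescaled).

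Genes that mark the stem cell state were mostly too low in mNPC to be reported, and the 7 of 33 that were had 2 higher and none lower, also at an unadjusted p below 0.05 in edgeR and in DESeq2. Dnmt3b, a de novo DNA methyltransferase, was at 58.7, 125 and 138 CPM in mESC chromatin, 81.9, 204 and 188 CPM in mESC nucleoplasm, 14.7, 10.6 and 13.4 CPM in mNPC chromatin and 3.86, 4.20 and 4.33 CPM in mNPC nucleoplasm. The level fell in both fractions, further in nucleoplasm, and what remained in progenitors was mainly on chromatin. The difference was 2.20 (SE 0.45, adjusted p = 0.000451), 0.99 (not called) by TPM and 1.22 (called) after rescaling. Tet2, which oxidises methylcytosine, differed by 1.01 (SE 0.20, adjusted p = 0.00036), and Sox2, a factor shared by both cell types, by 0.49 (adjusted p = 0.0526).

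Among 21 reported neural progenitor and radial glia genes 9 had a lower ratio and 2, Msi1 and Nfia, a higher one, with a median of -0.57. Without mESC chromatin replicate 1, 4 were higher. Slc1a3, the glutamate transporter of radial glia, held 784, 691 and 724 CPM in mNPC chromatin and 4456, 4279 and 3598 CPM in mNPC nucleoplasm, against 43.0, 88.0 and 99.2 CPM and 44.0, 55.8 and 53.3 CPM in mESC. Its difference was -3.08 (SE 0.31, adjusted p = 4.11e-08). Nes, the intermediate filament nestin, differed by -1.59 (SE 0.29, adjusted p = 0.000142). Vim, which encodes vimentin, was at -0.57 (adjusted p = 0.0321), a call lost without mESC chromatin replicate 1 (-0.31), mESC nucleoplasm replicates 2 or 3 (-0.55 and -0.53), mNPC chromatin replicates 1 or 2 (-0.56 and -0.53) or mNPC nucleoplasm replicates 1 or 2 (-0.54 and -0.57). Vim also lost its call with the 12 compared libraries alone (-0.57). Nfia, a transcription factor of glial fate, went the other way at 0.87 (SE 0.24, adjusted p = 0.00695): 2713, 2774 and 2589 CPM were in mNPC chromatin and 209, 146 and 147 CPM in mNPC nucleoplasm.

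Among nuclear long noncoding RNAs, 11 of 22 names matched a tested gene and 8 were reported, with 2 higher, none lower (also at an unadjusted p below 0.05 in edgeR, and in DESeq2) and a median of 0.57. The 2 were Malat1 and Nespas (0.61, adjusted p = 0.0417), an antisense transcript of the imprinted Gnas locus named here after its value was seen. Malat1, a component of nuclear speckles, was at 8950, 4724 and 5322 CPM in mESC chromatin and 10822, 5028 and 4086 CPM in mESC nucleoplasm, and at 23062, 22842 and 22165 CPM in mNPC chromatin and 8652, 6583 and 8452 CPM in mNPC nucleoplasm. Replicate 1 was the highest of both mESC fractions and the fractions overlapped there, while in mNPC they did not. The difference was 1.59 (SE 0.37, adjusted p = 0.00151), and 1.05 (adjusted p = 0.0052) without mESC nucleoplasm replicate 1. Neat1, the scaffold of paraspeckles, was at 1.18 and did not pass (adjusted p = 0.0611). It was at 0.55 without mESC nucleoplasm replicate 1, and it passed without mESC chromatin replicate 1, mESC nucleoplasm replicate 2 (1.36) or mESC nucleoplasm replicate 3 (1.47).

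Annotated small nucleolar RNAs, which guide modification of ribosomal and small nuclear RNA, had 19 higher and 9 lower among 100 reported, with a median of 0.44. The share of higher genes was 19%, near the 17.9% over all reported genes, and 9% were lower, against 21.5%. The higher count was 12 without mESC nucleoplasm replicate 2 or mNPC chromatin replicate 2, 11 without mNPC nucleoplasm replicate 3, 8 without mNPC nucleoplasm replicate 1. With TPM 9 were higher and 8 lower, and after rescaling 5 were higher and 13 lower, so the majority turned. The lower count was 5 without mESC chromatin replicate 2, mNPC chromatin replicate 1 or mNPC nucleoplasm replicate 2. Many lie in introns of host genes, whose reads cannot be told apart from theirs here. Snora73a and Snora73b, the 2 with the lowest differences at 10 CPM or more, are just over the 200 nt limit of the RNA selection. Their sequences are shown because they are near copies of one another: 198 of their 205 bases are identical, so their reads cannot be fully told apart. Both lie within Snhg3 and Rcc1 on chromosome 4 (mm10, minus strand, chr4:132352775-132352979 for Snora73a and chr4:132352322-132352526 for Snora73b). They are printed 5′ to 3′ from GENCODE vM21 transcripts, with capitals on the ACA box, searched for on the transcript's strand only as the letters ACA followed by exactly 3 bases to the 3′ end, which 35 of 42 annotated Snora transcripts (83.3%) hold.
Snora73a: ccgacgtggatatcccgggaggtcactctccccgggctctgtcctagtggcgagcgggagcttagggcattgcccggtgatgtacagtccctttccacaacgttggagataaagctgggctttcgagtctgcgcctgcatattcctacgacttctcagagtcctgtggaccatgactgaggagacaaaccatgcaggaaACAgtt
Snora73b: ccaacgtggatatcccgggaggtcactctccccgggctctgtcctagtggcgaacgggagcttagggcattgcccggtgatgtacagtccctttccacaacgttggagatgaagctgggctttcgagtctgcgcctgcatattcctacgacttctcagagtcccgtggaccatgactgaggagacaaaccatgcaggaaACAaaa

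Snora73b was at 1138, 1236 and 836 CPM in mESC chromatin, 878, 215 and 222 CPM in mESC nucleoplasm, 1070, 1006 and 1100 CPM in mNPC chromatin and 1709, 2190 and 1333 CPM in mNPC nucleoplasm. The mNPC fractions did not overlap, whereas in mESC nucleoplasm replicate 1 reached the range of chromatin. The difference was -2.01 for Snora73b (SE 0.48, adjusted p = 0.00201) and -1.76 for Snora73a (SE 0.49, adjusted p = 0.0071), and -3.01 and -2.82 without mESC nucleoplasm replicate 1. The host Snhg3 was called at -1.82 and Rcc1, the exchange factor of Ran, at -1.74 by gene-span counts, which include the snoRNAs. By TPM the 2 hosts were at 0.57 and 0.67, and rescaled at 0.28 and 0.43, with neither called.

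**Figure D4:**
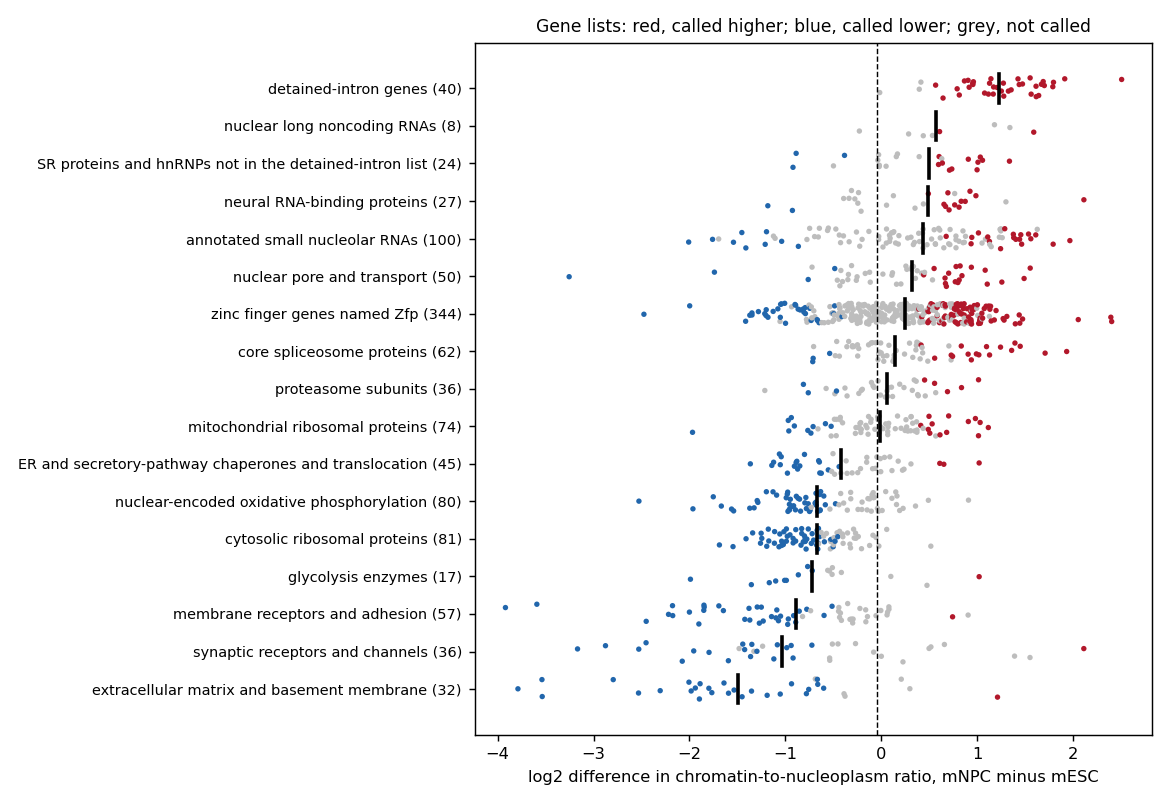
Log2 difference in the chromatin-to-nucleoplasm ratio (mNPC minus mESC, x axis) for the genes of 17 lists, with the number reported in brackets; points are genes, red called higher, blue called lower, grey not called, thick bars are list medians and the dashed line is the median of all reported genes (-0.04). Detained-intron genes lie to the right (median 1.23, 37 of 40 higher) and extracellular matrix genes to the left (median -1.49, 26 of 32 lower).

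Of the remaining lists, replication-dependent histones were seldom called, with 1 of 51 higher and 3 lower, and 8 lower without mESC chromatin replicate 3. Proteasome subunits (36 genes) had 5 higher and 3 lower. Their counts moved with single libraries, to 11 higher without mESC nucleoplasm replicate 1, and to 2 higher and 6 lower without mESC nucleoplasm replicate 3. Cell cycle and replication genes (52) had 13 and 6 (25 and 11.5%, against 17.9 and 21.5% over all reported genes). They had 3 lower without mESC chromatin replicate 3, mESC nucleoplasm replicate 1, mNPC chromatin replicates 1 or 2 or mNPC nucleoplasm replicate 2. Immediate early genes (28) had 5 and 4, with 9 higher without mNPC nucleoplasm replicate 3 and 1 lower without mESC chromatin replicate 1. Very long genes (39) had 9 and 10, snoRNA host genes (10) 1 and 2, and translation factors (37) 8 and 9, with 3 higher without mNPC nucleoplasm replicate 3. Translation factors held opposite members, with Eif4a1, an RNA helicase of initiation, at 1.91 (0.49 by TPM and 0.046 rescaled, neither called) and Eef1b2, an elongation factor, at -1.18 (-0.61 by TPM, not called, and -1.08 rescaled, called). Of 5 reported structured noncoding RNAs, Rmrp, the RNA of RNase MRP, was at 1.20 (adjusted p = 0.0137) and lost its call without mESC nucleoplasm replicate 1 (0.79) or mNPC nucleoplasm replicate 3 (0.99). Rpph1, the RNA of RNase P, was at -1.05 (adjusted p = 0.0178). Its call was also lost without mESC chromatin replicate 1 (-0.73) or mNPC nucleoplasm replicate 2 (-0.77), and with the 12 compared libraries alone (-1.05). Rn7sk, which restrains transcription elongation, was at -0.78 (adjusted p = 0.105). Actb, which encodes beta-actin, was at 0.36 (adjusted p = 0.336). Near-identical histone copies make single values of that family uncertain.

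Gene span followed the calls in part. The choice of genes did not use span directly, but the counts behind it cover the whole span with its introns, without correction for length. Of protein-coding genes spanning less than 10 kb, 14.2% had a higher and 19.6% a lower ratio in mNPC. From 10 to 30 kb, the bin with most genes (3833), higher calls were the more frequent at 21.0 and 19.2%. From 30 to 100 kb the shares were 22.3 and 24%, from 100 to 300 kb 11.9 and 30.7%, and at 300 kb or more 14.1 and 27.7%. Longer genes were more on the chromatin side in both cell types, with medians of 2.50 in mESC and 2.37 in mNPC at 300 kb or more, against -1.06 and -1.15 below 10 kb. Spearman's rho between span and the ratio difference was -0.05 over 11928 protein-coding genes, a description across genes.

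**Figure D5:**
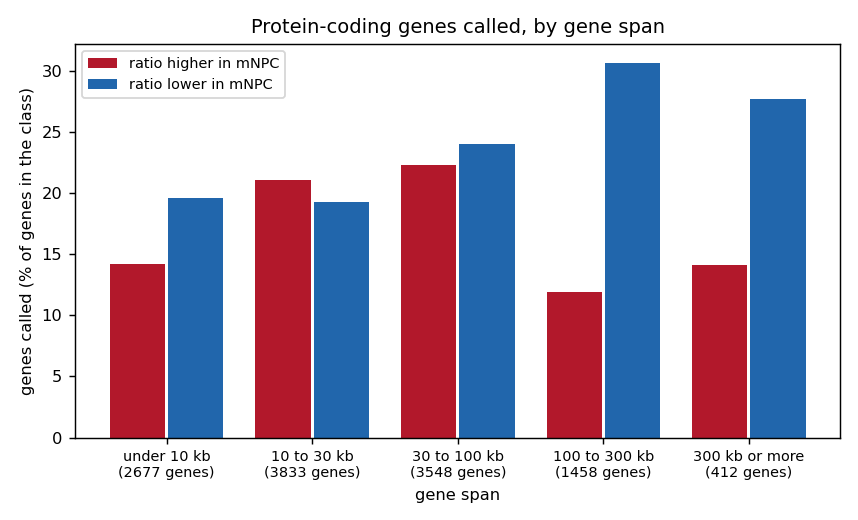
Share of protein-coding genes (%, y axis, from 0) whose ratio was called higher (red) or lower (blue) in mNPC, by gene span (x axis, number of genes in brackets). The blue bars exceed the red by the widest margin from 100 to 300 kb (30.7 against 11.9%).

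By class of transcript, protein-coding genes (11928) had 18.5% higher and 22.4% lower, and antisense transcripts (158) 3.16% higher and 14.6% lower. The 80 long intergenic RNAs had 8.75% in each direction. The cortical neurons are outside the contrast, though their libraries entered the same fit. Their medians lay between those of the 2 cell types in both classes. The classes were chosen by the difference between those 2 cell types, and that choice by itself favours a place between them for any other group. Genes with a higher ratio in mNPC had a median log2 ratio of 0.06 in mESC, 0.28 in mCtx and 1.01 in mNPC, and those with a lower ratio -0.03, -0.33 and -1.28.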

How the data were processed

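Whole-number read counts per gene were deposited by the authors for 27 libraries and 37332 genes, and the Length column equals the gene span in all of them, so introns are counted. In the record of units the deposited values are listed under expected counts, a naming matter only, since all are whole numbers. The authors also deposited TPM for 53379 genes. STAR, featureCounts, kallisto and mm10 are named per the submitters' processing notes, without versions. Strand, multi-mapping and overlap rules are not given in the sources used here. Symbols and biotypes came from GENCODE vM21, which matched 35449 genes.

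After removal of 37 chrM rows all 27 libraries were fitted in edgeR 4.0.16 (R 4.3.3) with trimmed-mean scaling, the default low-count filter, 1 coefficient per group (18 residual degrees of freedom) and the quasi-likelihood test, with Benjamini-Hochberg adjustment over 18252 genes at 0.05. CPM used effective library sizes. Replicates are biological per the labels. The rule for named genes took the 8 largest differences per direction at 10 CPM or more, 5 per direction called on opposite sides of 1, the 2 highest and 2 lowest of each list at that level, and 20 further genes fixed by name (Meg3 and Lin28b were below the level, and no row was matched for Sox2ot); not all are described, and 1 gene that met the rule is not reported here. The members and lists were chosen with earlier results of these data known, and the lists came from general knowledge.

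Each value was recomputed with total counts, DESeq2 1.42.0, median-ratio size factors, chrM rows kept, no filter, only the 12 compared libraries, a level of 5 CPM, a log2 difference of at least 1, limma 3.58.1 on log2(TPM + 1), plain and rescaled, a replicate block, and leaving out each of the 12 libraries. Leaving out the mESC libraries numbered 1 was added after seeing the data. The fit was tested on simulated data for this comparison over 18252 genes. Of 50 altered genes per size, those found were 5 (1.5-fold), 26 (2-fold), 45 (4-fold) and 47 (8-fold). Of 18052 unaltered genes 13 were called, 9.56% of all calls at an adjusted p limit of 0.05. In the data 30.1% of tested genes were called, far more than were altered here. The adjustment is stricter with few calls, so these counts do not give the power of the real test. Figures were drawn with matplotlib 3.10.9.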

Additional observations from a re-analysis of the deposited data

Results flagged for a closer look

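The chromatin-to-nucleoplasm contrast differed between mNPC and mESC by the test of the difference itself in 5123 genes, and in 524 of them the fractions were called in opposite order in the 2 cell types. Those named by rule had log2 differences of -4.46 for Sorcs2, -3.83 for Dner, -3.11 for Pam, -3.08 for Ntrk2 and -2.88 for Gabbr1 in one direction. In the other they were 3.07 for Acrbp, 2.51 for Pabpn1, 2.01 for Hsd17b7, 1.79 for Srsf1 and 1.69 for Gm20521. Groups of 3 libraries are too small for a check of single outlying samples.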

How the results depend on the processing

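The 5123 genes called became 3087 with limma on log2(TPM + 1), of which 1163 were lower, 5052 after rescaling by the median ratio, of which 3084 were lower, and 571 when a log2 difference of at least 1 was tested, with 152 higher and 419 lower. That limit gave 4002 genes within mESC and 5291 within mNPC. Leaving out 1 library gave 4421 to 5496 genes, the 12 compared libraries alone 4082 and a level of 5 CPM 4502. Low list counts moved with single libraries and settings, and glycolysis enzymes had 5 lower genes with the 12 libraries alone. Of the genes called in both fits, the sign was opposite in 54 with TPM and in 38 with rescaled TPM, and in none with the other alternatives. Among 135 genes named by rule, 45 kept direction and call in all 23 alternatives. Genes called in either fit that changed sign with TPM, with rescaled TPM or with both were Pcdhgc4 (0.12 and 0.14), Snhg3 (0.57 and 0.28), Rcc1 (0.67 and 0.43), Zfp975 (-0.28 and -0.043), Sdf2l1 (0.43 with TPM), Hnrnpf (0.018), Snrpb (0.068), Lsm4 (0.21), Kcnq3 (-0.57), Rbfox2 (0.51 rescaled) and Nxf1 (-0.054 rescaled). The cause was not tested.

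The replicate number as a block within cell type gave 6593 genes. Same-numbered chromatin and nucleoplasm libraries correlated at 0.57, 0.34 and 0.50 in mESC, where each library matched its own number best, and at 0.16, 0.03 and 0.14 in mNPC, where nucleoplasm replicate 2 was as close to chromatin replicate 3, so the numbers were not taken to pair. With the block Neat1 (1.08), Tfrc (0.84), Sox2 (0.50), Clk3 (0.41), Homer1 (0.51), Kcnq3 (0.61) and Rn7sk (-0.75) also passed. In the simulation, 3 of 50 differences of 1.5-fold were found with the block and 5 of 50 without it. Far fewer genes differed there than were called in the data.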
